A study of Mus musculus with 4 samples.

Results

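Abhd1, Bst1, Rpgrip1, Trim34a and Nos2 are 5 genes whose signals in the intestinal mucosa differed at least 4-fold between the mouse strains A/J and C57BL/6J, averaged over 2 diets. They were chosen by that measured difference, and for lying outside metabolism, from 12393 genes with a probe set of their own on the array. The platform annotation ties 12 probe sets to them, of which 10 name 1 gene and 2 name Trim34a together with its copy Trim34b. Of the 12, 8 had a mean scaled signal of at least 100 over the arrays, and each of the 5 genes had at least 1 of these.

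The study measured expression in the mucosa of male mice, 10 weeks old, after 2 weeks on their diet, in 4 groups: A/J fed high-fat, A/J fed low-fat, C57BL/6J fed high-fat and C57BL/6J fed low-fat food. C57BL/6J, the strain of the mouse reference genome, is known to become obese on fatty food, and A/J is known to stay leaner. Each group held 6 mice, and RNA of 2 of them with an average body weight was pooled for 1 Affymetrix 430A array, on which each gene is read by sets of short probes. With 1 pool per group no spread between samples of a group could be measured, and having 4 arrays limits how precise any value is.

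The deposited signals were scaled to a common trimmed mean of 500, and values under a floor of 100 were set to it before a ratio was taken. A ratio with a side under the floor is a lower bound, written as at least that many fold. All ratios between strains are A/J over C57BL/6J, and all ratios between diets are high-fat over low-fat. Between 58.6% and 60.3% of probe sets on an array reached the floor. The 6 measured enterocyte markers, among them Vil1 and Fabp2, summed to 110535 and 113177 on the A/J high-fat and low-fat arrays, and 113999 and 106530 on the C57BL/6J high-fat and low-fat arrays, which fits the labelled tissue. The C57BL/6J low-fat array stood apart in 18S ribosomal RNA, whose 5′ probe set had 84.4 and 218 on the A/J high-fat and low-fat arrays, and 1675 and 11010 on the C57BL/6J high-fat and low-fat arrays. The A/J high-fat array stood apart in 7 markers of the exocrine pancreas, which summed to 1623 there, against 65541 on A/J low-fat and 101732 and 66145 on C57BL/6J high-fat and low-fat. The C57BL/6J high-fat array stood apart in 4 gastric surface markers, which summed to 1163 and 2627 on A/J high-fat and low-fat, and 8211 and 1354 on C57BL/6J high-fat and low-fat. The part of these differences in any result here was not tested, and neither diet gives a strain comparison free of them, so both are given throughout. In pooled tissue, fewer cells of a type and less RNA per cell cannot be told apart.

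The 5 genes have different jobs. Abhd1 belongs to the alpha/beta hydrolase domain family, many of whose members cleave lipids and esters. Bst1 (CD157, BP-3) is a surface protein that cleaves NAD, a paralogue of Cd38, and is known from bone marrow stroma, myeloid and early B cells and, in the mouse gut, Paneth cells. Rpgrip1 is a scaffold of the connecting cilium of photoreceptors, where it anchors the protein Rpgr. Trim34a is one of the tripartite motif proteins, a family rich in ubiquitin ligases and in genes that interferons induce. Nos2, the inducible nitric oxide synthase, makes nitric oxide from arginine and is switched on by interferon-gamma, by NF-kB and by microbial products.

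In the GRCm38.p6 RefSeq annotation of the C57BL/6J genome, Abhd1 lies at chr5:30950066-30955095, Bst1 at chr5:43818880-43843468, Trim34a at chr7:104244448-104262244, Nos2 at chr11:78920787-78960226 and Rpgrip1 at chr14:52104241-52161339. RefSeq classes Abhd1 as a transcribed pseudogene in this strain and the other 4 as protein-coding. Trim34a sits in a run of related genes that reaches from Trim6 to Trim30d. The RefSeq table of start regions, which runs from 250 bases before to 50 bases after a start, holds Trim34a and Rpgrip1 of the 5 genes. The Trim34a region is shown because 3 neighbours in its cluster were also lower in A/J, as described further on. It is chr7:104244207-104244506, plus strand, 5′ to 3′, and the capitals mark the core of the interferon-stimulated response element, searched on both strands as GAAA and GAAA with any 2 bases between them, which reads TTTC and TTTC on the opposite strand.

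Trim34a: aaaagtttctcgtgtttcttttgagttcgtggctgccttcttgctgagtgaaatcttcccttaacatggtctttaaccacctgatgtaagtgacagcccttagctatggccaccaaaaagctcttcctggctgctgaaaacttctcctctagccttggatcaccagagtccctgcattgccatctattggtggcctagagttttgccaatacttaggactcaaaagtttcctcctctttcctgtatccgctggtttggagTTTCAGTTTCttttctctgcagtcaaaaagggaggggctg

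The same element was present in the start regions of several neighbours and of Trim21, which lies 1679 kb from Trim34a. They are shown here as 28 bases around the match, on the strand of the gene, to let the copies be compared.
Trim34a (chr7:104244459-104244486): gtttggagTTTCAGTTTCttttctctgc
Trim5 (chr7:104288136-104288163): agttgtggTTTCTGTTTCatttccagag
Trim12a (chr7:104315466-104315493): agttgtggTTTCTGTTTCatttccagag
Trim30a (chr7:104465210-104465237): ttctttagTTTCTTTTTCtcagttcctg
Trim30d (chr7:104507871-104507898): ttctttagTTTCTTTTTCtcagttcctg
Trim21 (chr7:102565450-102565477): tctgagagGAAACTGAAAGTGAAAtttg
The 28 bases of Trim5 and Trim12a were identical, as were those of Trim30a and Trim30d, and in Trim21 a pair of matches overlapped. The element was found in 7 of 10 of the Trim genes looked up around Trim34a, Trim34a included, and in 12 of the 21 genes of a list of type I interferon-induced genes that the table held. It was absent from those of Trim6, Trim30b and Trim34b. Over all 32851 start regions it was found in 3.44%. That share counts start regions, whereas the lists count genes with a match in any of their start regions. The Trim genes are also related copies, so the shares are not strictly alike. Such a match is a description of letters in the C57BL/6J genome and does not show that a factor binds there, nor what the A/J sequence is.

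The strain difference was 8.48-fold on the high-fat and 7.06-fold on the low-fat arrays for Abhd1, which was higher in A/J, and for each of the other 4 genes A/J was lower on both diets. These ratios chose the genes, so they carry no test. Of all 8036 measured genes, 63 (0.784%) were at least 4-fold apart on average over the diets, 26 (0.324%) higher in A/J and 37 (0.46%) lower. By the size of the mean ratio, taken at its bound where the floor was reached, Bst1 ranked 13 of these 63, Rpgrip1 14, Abhd1 22, Trim34a 26 and Nos2 36. The genes just inside the threshold were Adgrd1 at 4.03-fold and the pancreatic colipase gene Clps at 4.0-fold, and those just outside were the glycerol channel Aqp3 at 3.98-fold and Isoc2b at 3.96-fold. A mean ratio can rest on 1 diet. Clps had 764 and 7115 on A/J high-fat and low-fat, and 11935 and 7292 on C57BL/6J high-fat and low-fat. Rnase1, 5.48-fold lower in A/J on average, was 36.9-fold lower on high-fat and 1.23-fold higher on low-fat. The counts and ranks over the 63 and the 37 include such genes.

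**Figure D1:**
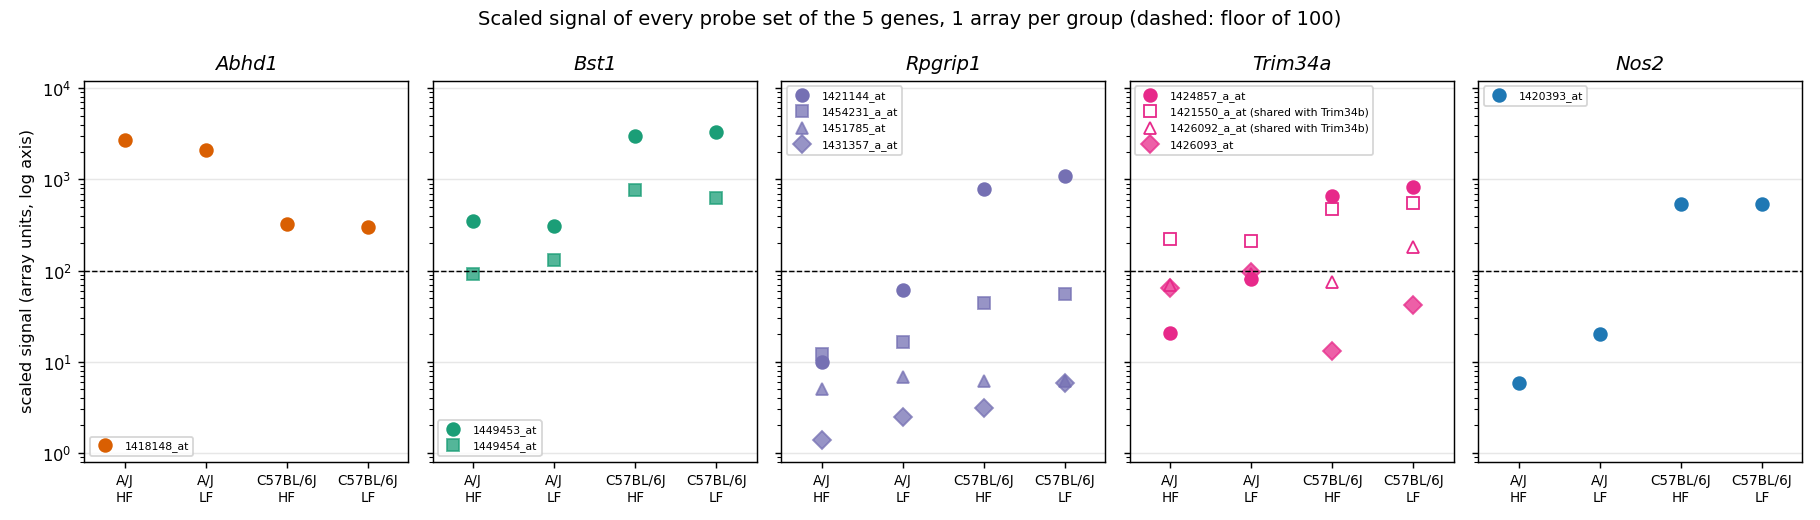
Scaled signal (log axis, array units) of every probe set annotated to Abhd1, Bst1, Rpgrip1, Trim34a and Nos2 on the 4 arrays (HF, high-fat; LF, low-fat), 1 array per group. Each point is 1 probe set on 1 array, open symbols mark the probe sets shared with Trim34b, and the dashed line is the floor of 100. In the brightest probe set of each gene the A/J points lie apart from the C57BL/6J points on both diets, the difference by which the genes were chosen.

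Abhd1 was read by 1 probe set. Its scaled signal was 2721 on the A/J high-fat array and 2099 on A/J low-fat, against 321 on C57BL/6J high-fat and 297 on C57BL/6J low-fat. The C57BL/6J signals were about 3 times the floor, so Abhd1 was lower in C57BL/6J without being under the floor. The mean log2 ratio over the diets was 2.95.

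Bst1 was read by 2 probe sets. The brighter one had 352 on A/J high-fat and 311 on A/J low-fat, against 3021 on C57BL/6J high-fat and 3301 on C57BL/6J low-fat. That is 8.59-fold lower in A/J on high-fat and 10.6-fold lower on low-fat. The dimmer one had 92.2 and 131 on the A/J high-fat and low-fat arrays, against 761 and 618 on the C57BL/6J high-fat and low-fat arrays. It too was lower in A/J, by at least 7.61-fold on high-fat and by 4.72-fold on low-fat. In its brighter probe set Bst1 stayed above the floor in A/J on both diets.

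Rpgrip1 had 4 probe sets, and 1 of them carried the signal. It gave 9.81 on A/J high-fat and 61.7 on A/J low-fat, both under the floor, against 777 on C57BL/6J high-fat and 1098 on C57BL/6J low-fat. The A/J signal of Rpgrip1 was therefore lower by at least 7.77-fold on high-fat and by at least 11-fold on low-fat. The other 3 probe sets lay under the floor on all 4 arrays, between 1.40 and 55.7, and give no ratio. The highest of these 3 read 12.1 and 16.3 on the A/J high-fat and low-fat arrays and 44.3 and 55.7 on the C57BL/6J high-fat and low-fat arrays, values too low to rank.

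Trim34a had 2 probe sets of its own and 2 shared with Trim34b, and they did not give the same ratio. The brightest of its own had 20.5 on A/J high-fat and 79.9 on A/J low-fat, against 662 on C57BL/6J high-fat and 835 on C57BL/6J low-fat. By this reading the signal of Trim34a in A/J was lower by at least 6.62-fold on high-fat and by at least 8.35-fold on low-fat. The other had 65.0 and 96.5 on the A/J high-fat and low-fat arrays, and 13.0 and 41.5 on the C57BL/6J high-fat and low-fat arrays, all under the floor. Of the shared pair, the brighter probe set had 224 and 211 on the A/J high-fat and low-fat arrays, against 474 and 546 on the C57BL/6J high-fat and low-fat arrays. This is 2.11-fold lower in A/J on high-fat and 2.59-fold lower on low-fat, with all 4 arrays above the floor. The dimmer shared probe set passed the floor on C57BL/6J low-fat alone, at 180. A signal of a shared probe set cannot be assigned to Trim34a or to Trim34b.

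Nos2 was read by 1 probe set. Its signal was 5.89 on A/J high-fat and 20.1 on A/J low-fat, both under the floor, against 539.9 on C57BL/6J high-fat and 539.7 on C57BL/6J low-fat. On each diet this made Nos2 lower in A/J by at least 5.40-fold, a bound set by the floor.

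An on-off pattern, with both arrays of a strain under the floor, thus held for Rpgrip1, Trim34a and Nos2 and not for Abhd1 or Bst1. Among all 37 genes at least 4-fold lower in A/J, 4 had both A/J arrays under the floor; the other one was H2-Q2, a class I histocompatibility gene, which read 3.08 and 7.88 on the A/J high-fat and low-fat arrays and 707 and 675 on the C57BL/6J high-fat and low-fat arrays. Among the 26 at least 4-fold higher in A/J, 3 had both C57BL/6J arrays under the floor. Whether the A/J genome differs under the probes was not tested, since probe sequences were not used here. Abhd1 and Nos2 have no other probe set to set beside the one that chose them, and for Rpgrip1 the other 3 were too dim to serve.

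**Figure D2:**
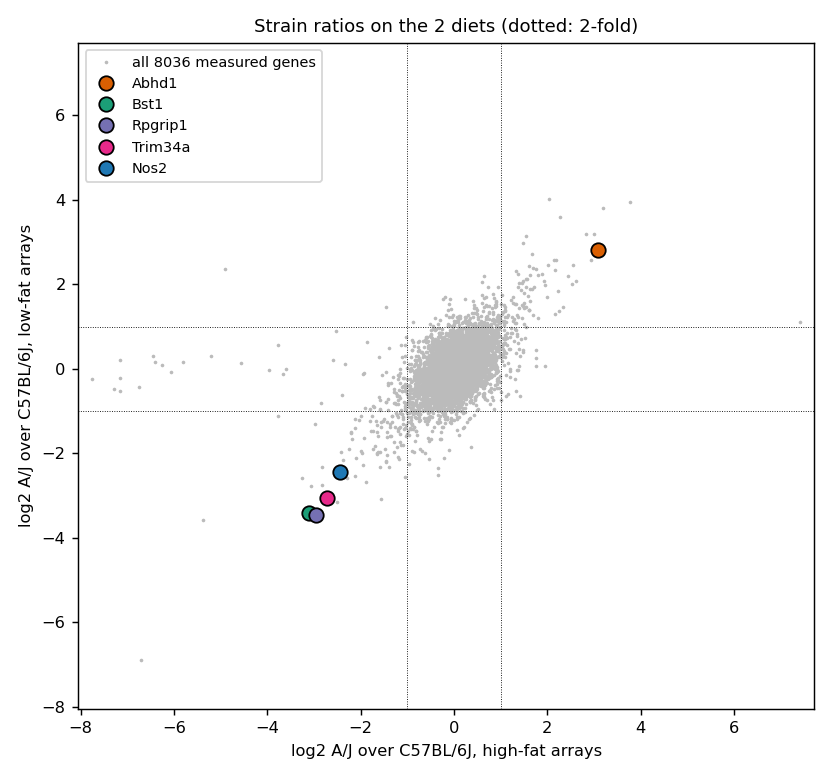
Log2 ratio of A/J over C57BL/6J on the high-fat arrays (horizontal) and the low-fat arrays (vertical) for all 8036 measured genes (grey) and the 5 genes (coloured), with 2-fold marked by dotted lines. Abhd1 lies at 3.08 and 2.82, and the other 4 genes lie at or under -2.43 on both axes; values of genes under the floor are bounds.

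The diet comparison uses another contrast than the one that chose the genes. It is not free of that choice for Rpgrip1, Trim34a and Nos2, which passed the filter through C57BL/6J alone: both A/J arrays are at the floor, so their A/J diet ratio is 0 by construction and the diet effect of the fit is the mean of that 0 and the C57BL/6J ratio. In C57BL/6J none of the 5 was 2-fold apart between diets, and in A/J neither Abhd1 nor Bst1 was, where 64 of 8036 measured genes (0.796%) passed 2-fold upwards and 84 (1.05%) downwards on high-fat in A/J, and 82 (1.02%) higher and 54 (0.672%) lower in C57BL/6J. The diet term of a limma fit over all 4 arrays, with strain as a second term, called 49 genes (0.61%) at a Benjamini-Hochberg adjusted p under 0.05, of which 34 (0.423%) were higher and 15 (0.187%) lower on high-fat, and 0 were among the 5. By the same fit 751 genes (9.35%) had an unadjusted p under 0.05, and again none of the 5 was among them. Abhd1 had the lowest p of the 5, with a log2 diet effect of 0.24 (SE 0.198, limma adjusted p = 0.810, unadjusted 0.245), and was higher on high-fat in both strains. Rpgrip1 had -0.25 (SE 0.207, limma adjusted p = 0.816) and Trim34a -0.17 (SE 0.200, limma adjusted p = 0.886), and both rest on the C57BL/6J arrays, because both A/J values were at the floor. Bst1 had 0.03 (SE 0.199, limma adjusted p = 0.988). For Nos2 the C57BL/6J signals on the diets were within 1 unit of each other, and its A/J signals were under the floor. An adjusted p that misses the threshold, with 1 residual degree of freedom, does not show that diet left these genes unaltered.

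Within C57BL/6J, the diet log2 ratios were -0.50 for Rpgrip1, -0.33 for Trim34a, -0.13 for Bst1, 0.00 for Nos2 and 0.11 for Abhd1. In A/J they were 0.37 for Abhd1 and 0.18 for Bst1, and could not be given for the other 3. The difference of the diet ratios, A/J minus C57BL/6J, was 0.26 for Abhd1 and 0.31 for Bst1, and 4 arrays leave no test for it.

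**Figure D3:**
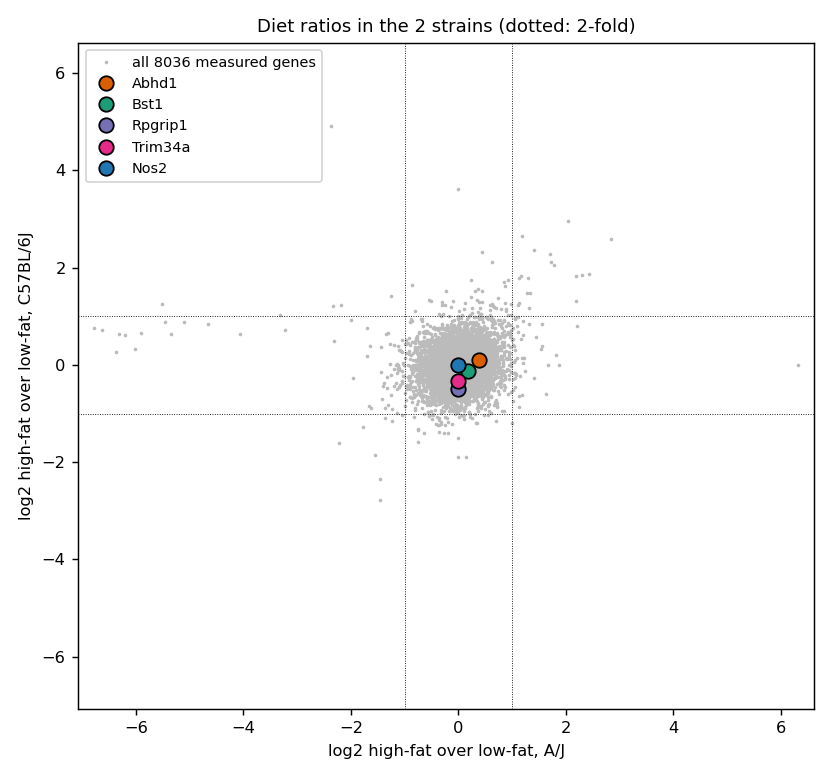
Log2 ratio of high-fat over low-fat in A/J (horizontal) and C57BL/6J (vertical) for all 8036 measured genes (grey) and the 5 genes (coloured), with 2-fold marked by dotted lines. The 5 genes lie between 0 and 0.37 in A/J and between -0.50 and 0.11 in C57BL/6J, inside the 2-fold lines; Rpgrip1, Trim34a and Nos2 are at 0 in A/J because both arrays were under the floor.

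The genes around each of the 5 were then read in RefSeq gene order, to show how far along the chromosome a strain difference reached. Of the 50 nearest genes in the table, 5 on each side of each gene, 16 were measured. Of these, 1 passed 2-fold on both diets, Trim12a, which was lower in A/J, and 0 did so upwards. Among all measured genes the shares were 1.21% downwards and 1.12% upwards. Since none of the 10 around Bst1 was measured, its neighbours Fbxl5 and Cd38 are not analysed here, and the 5 nearest measured genes on each side were also taken, a choice made after seeing this. Of those 50, 1 was higher and 4 were lower in A/J on both diets, and 3 of the 4 lay within 208 kb of Trim34a. The farthest gene taken lay 131 kb from Abhd1, 566 kb from Nos2, 957 kb from Rpgrip1, 2006 kb from Trim34a and 5256 kb from Bst1.

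Abhd1 overlaps Preb, which encodes the guanine nucleotide exchange factor Sec12 of vesicle export from the endoplasmic reticulum. Preb had 2303 and 1918 on the A/J high-fat and low-fat arrays, against 1478 and 1382 on the C57BL/6J high-fat and low-fat arrays, log2 ratios of 0.64 and 0.47. On the other side Cgref1 had log2 ratios of -0.04 on high-fat and -0.07 on low-fat. Of the 10 nearest measured genes around Abhd1, none was 2-fold apart on both diets in either direction. For Nos2 the same count was 0 of 10, and its neighbour Lgals9, the gene of galectin-9, had log2 ratios of -0.31 and -0.63 on high-fat and low-fat.

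Beside Rpgrip1, Hnrnpc had log2 ratios of -0.29 on high-fat and 0.21 on low-fat. Ndrg2, 190 kb away, was the 1 gene of 50 that passed 2-fold upwards in A/J on both diets, with 366 and 529 on the A/J high-fat and low-fat arrays and 118 and 113 on the C57BL/6J high-fat and low-fat arrays. It ran opposite to Rpgrip1. Around Bst1, Prom1, the gene of the membrane protein prominin-1 at 150 kb, was lower in A/J, with 543 and 612 on the A/J high-fat and low-fat arrays and 1609 and 1588 on the C57BL/6J high-fat and low-fat arrays. Its log2 ratios were -1.57 on high-fat and -1.37 on low-fat, in the direction of Bst1.

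**Figure D4:**
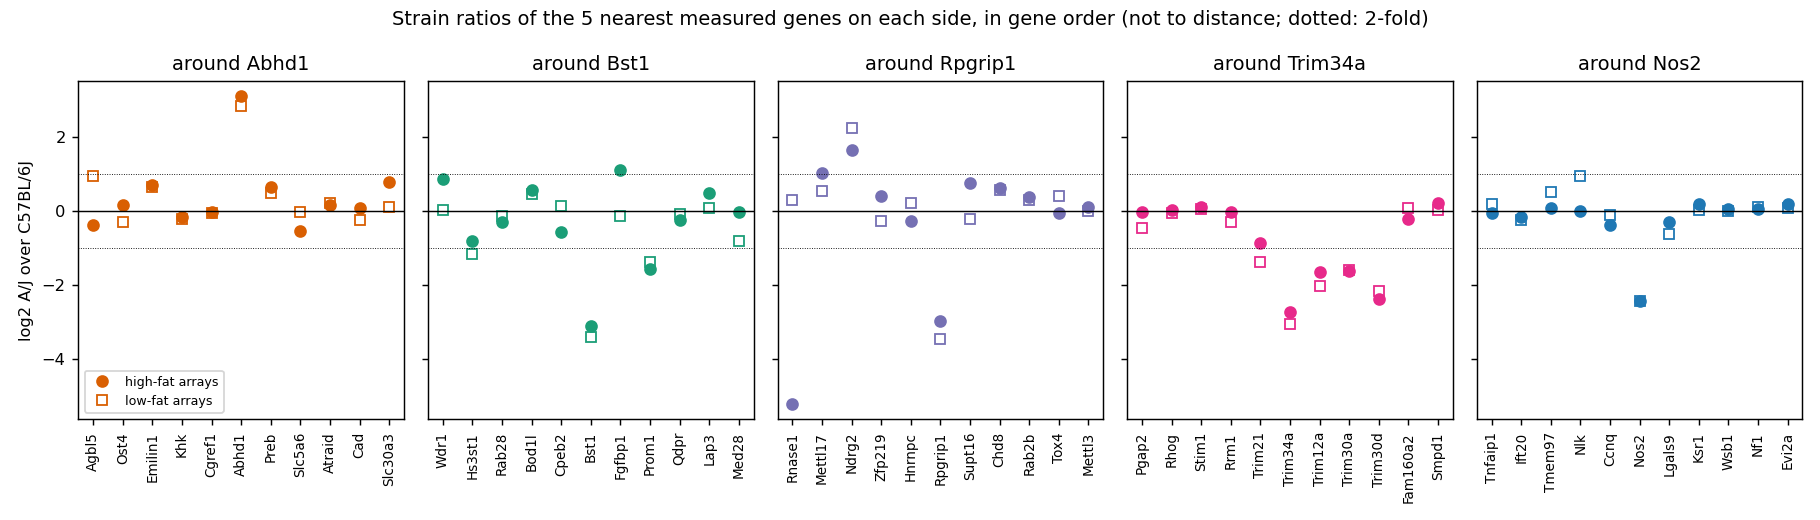
Log2 ratio of A/J over C57BL/6J on the high-fat arrays (filled circles) and low-fat arrays (open squares) for each of the 5 genes and its 5 nearest measured genes on each side, in chromosome order and not to distance, with 2-fold marked by dotted lines. Around Trim34a, Trim12a, Trim30a and Trim30d lie under the lower dotted line on both diets, while around Abhd1 and Nos2 no other gene passes a dotted line on both.

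The Trim cluster was the region where several genes differed together. Trim12a, a relative of the retroviral restriction factor Trim5, had 1.68 and 17.1 on the A/J high-fat and low-fat arrays, against 313 and 405 on the C57BL/6J high-fat and low-fat arrays. Like Trim34a it was under the floor on both A/J arrays, and its ratio was at least 3.13-fold on high-fat and at least 4.05-fold on low-fat. A second Trim12a probe set, at 27.7 and 79.4 on the A/J high-fat and low-fat arrays and 111 and 113 on the C57BL/6J high-fat and low-fat arrays, was near the floor and gave bounds of 1.11-fold and 1.13-fold.

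Trim30d had 137 and 242 on the A/J high-fat and low-fat arrays, against 710 and 1078 on the C57BL/6J high-fat and low-fat arrays, 5.17-fold and 4.46-fold lower in A/J on high-fat and low-fat. Trim30a, an interferon-induced gene known in mice as a restraint on Toll-like receptor signalling, had 286 and 593 on the A/J high-fat and low-fat arrays, against 880 and 1789 on the C57BL/6J high-fat and low-fat arrays. Its strain ratio was 3.07-fold on high-fat and 3.02-fold on low-fat, and 1.95-fold and 2.08-fold in its other probe set. Trim30a also fell with high-fat feeding, by 1.04 on the log2 scale (limma adjusted p = 0.036), and was lower on the high-fat array in both strains. In its other probe set the diet log2 ratios were -0.32 in A/J and -0.41 in C57BL/6J. Because these genes are close copies of each other, a probe set assigned to one may also bind the RNA of another, which was not tested.

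**Figure D5:**
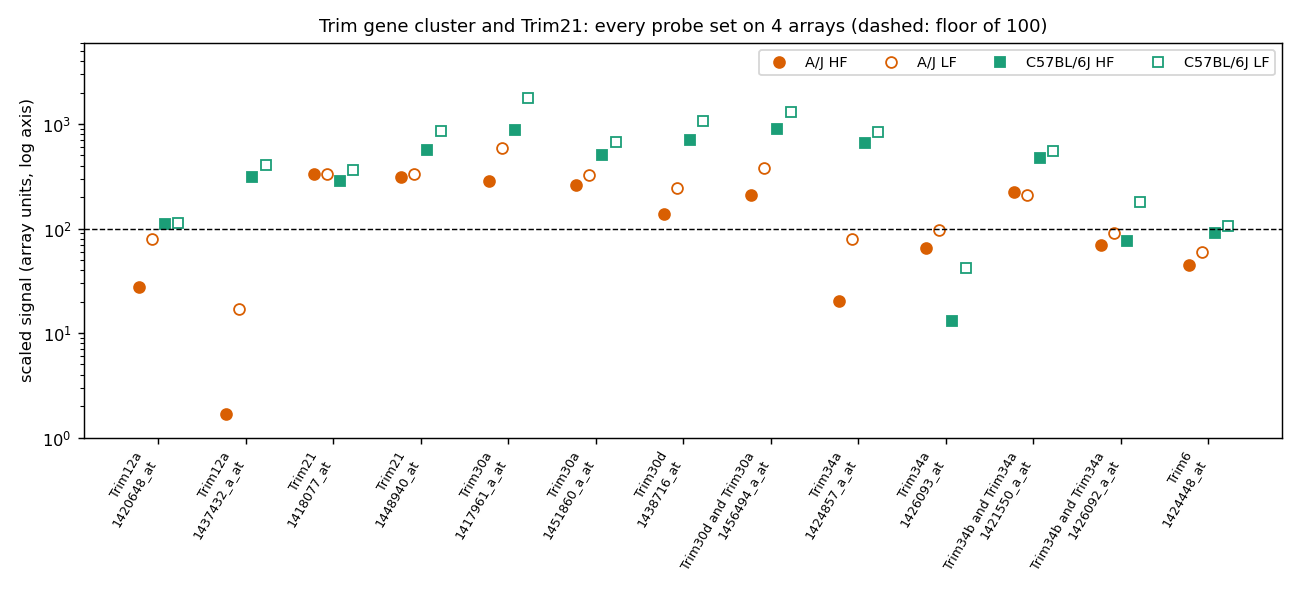
Scaled signal (log axis, array units) of every probe set annotated to Trim34a, Trim34b, Trim12a, Trim30a, Trim30d, Trim6 and Trim21 on the 4 arrays (HF, high-fat; LF, low-fat), with 1 point per array and the floor of 100 dashed. A/J points (circles) lie under the C57BL/6J points (squares) in the brightest probe set of Trim34a, Trim12a, Trim30a, Trim30d and Trim21, and not in a second probe set of Trim34a and of Trim21.

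Over the Trim family as a whole the strains were close. Of 25 measured Trim genes other than Trim34a, 4 were at least 2-fold lower in A/J on both diets and 0 higher, against 1.21% and 1.12% of all measured genes. Besides Trim12a, Trim30a and Trim30d, the fourth was Trim15, at 580 and 737 on the A/J high-fat and low-fat arrays and 1323 and 1636 on the C57BL/6J high-fat and low-fat arrays. The median log2 ratio over the 25 was -0.12 on high-fat and -0.25 on low-fat, beside 0.04 and 0.02 over all measured genes. Without scaling between arrays it was 0.16 on high-fat, but the all-gene median moved upwards as well. With ratios averaged over the diets, the list's median minus the all-gene median was -0.12 as reported and -0.14 without scaling. By limma, 1 of the 25, Trim30a, fell with high-fat feeding and 0 rose, against 0.187% and 0.423% of all measured genes.

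Of 25 measured genes that type I interferon induces, 3 passed 2-fold downwards in A/J on both diets and 0 upwards, against 1.21% and 1.12% of all measured genes, and without scaling 2 did. These were Zbp1, a sensor of nucleic acids that starts cell death, at 2.61-fold on high-fat and 5.03-fold on low-fat, Ifih1, the RNA sensor MDA5, at 2.27-fold and 4.36-fold, and Ifit2, at least 2.29-fold and 4.24-fold. The list's median log2 ratio was -0.36 on high-fat and -0.85 on low-fat, and without scaling -0.08 and -0.67. The difference was thus smaller where the array with high 18S signal was not used, and the part of that array in it was not tested. Without scaling the all-gene median moved as well. With ratios averaged over the diets, the list's median minus the all-gene median was -0.68 as reported and -0.67 without scaling. With diet, 1 of the 25, Ifit2, fell by limma on high-fat by 1.89 on the log2 scale (adjusted p = 0.0022), against 0.187% of all measured genes, and the list's median diet log2 ratio was -0.36 for A/J and -0.80 for C57BL/6J. Trim34a had a diet log2 ratio of -0.33 in C57BL/6J, nearer to 0 than that median.

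Of 17 measured genes of nitric oxide and arginine metabolism other than Nos2, 0 were at least 2-fold apart on both diets in either direction, which is near the all-gene shares of 1.21% lower and 1.12% higher. Their median log2 ratio was -0.01 on high-fat and -0.03 on low-fat. Gch1, the first enzyme of the synthesis of tetrahydrobiopterin, which Nos2 needs as a cofactor, had 607 and 422 on the A/J high-fat and low-fat arrays, against 1058 and 1258 on the C57BL/6J high-fat and low-fat arrays. It was 1.74-fold lower in A/J on high-fat and 2.98-fold lower on low-fat, in the direction of Nos2. Arg2, an arginase that draws on the same substrate, had 9791 and 8613 on the A/J high-fat and low-fat arrays, against 8151 and 5453 on the C57BL/6J high-fat and low-fat arrays, log2 ratios of 0.26 and 0.66.

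Of 24 measured genes of interferon-gamma and NF-kB host defence, 3 were at least 2-fold lower in A/J on both diets and 0 higher, against 1.21% and 1.12% of all measured genes, and 2 were lower with quantile normalization or without scaling. Gbp2, a guanylate-binding protein, was at least 2.44-fold and at least 3.94-fold lower on high-fat and low-fat. Duoxa2, the maturation factor of the peroxide-making oxidase Duox2, was at least 3.12-fold and at least 2.52-fold lower. Reg3g, an antibacterial lectin, was 2.04-fold and 3.03-fold lower. The median over the 24 was -0.37 on high-fat and -0.58 on low-fat on the log2 scale, and without scaling -0.08 and -0.40. With ratios averaged over the diets, the list's median minus the all-gene median was -0.584 as reported and -0.575 without scaling. With diet, 0 of the 17 and 0 of the 24 were called by limma, against 0.61% of all measured genes.

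Nos2 is also made by activated macrophages and neutrophils. The summed signal of 10 macrophage and dendritic cell markers was 10622 and 9270 on the A/J high-fat and low-fat arrays, and 9646 and 9352 on the C57BL/6J high-fat and low-fat arrays. The monocyte receptor gene Csf1r was higher in A/J, with 3538 and 3282 there and 2927 and 2626.5 in C57BL/6J, high-fat and then low-fat. C1qc, another of these markers, was lower in A/J, with 716 and 749 there and 897 and 909 in C57BL/6J. The 8 neutrophil markers summed to 572 and 517 on the A/J high-fat and low-fat arrays, and 669 and 852 on the C57BL/6J high-fat and low-fat arrays, with between 4 and 7 of them under the floor on an array and the defining genes S100a8 and S100a9 under it on all 4. The median strain log2 ratio of the 3 measured neutrophil markers was -0.50 on high-fat and -0.81 on low-fat, in the direction of Nos2. For the 9 measured macrophage and dendritic cell markers it was 0.16 and -0.14. The part of these cells in the Nos2 ratio was not tested.

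Of 12 measured genes of NAD metabolism other than Bst1, 0 were at least 2-fold lower in A/J on both diets and 1 was higher, against 1.21% and 1.12% of all measured genes, shares at which a list of this size shows little. That gene, Nt5e, encodes the surface nucleotidase CD73, which acts on AMP outside the cell, and it was 2.51-fold higher on high-fat and at least 4.99-fold higher on low-fat. Nampt, the rate-limiting enzyme of NAD salvage, had log2 ratios of -0.37 on high-fat and -0.35 on low-fat. The list's median was 0.25 on high-fat and 0.08 on low-fat. By limma 0 of 12 were called for diet, against 0.61% of all measured genes.

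Markers of cells known to carry Bst1 were read beside it, and their part in its ratio was not tested. The 8 stromal markers summed to 4319 and 3906 on the A/J high-fat and low-fat arrays, and 4083 and 3918 on the C57BL/6J high-fat and low-fat arrays, and 7 B cell markers to 2430 and 2680 in A/J and 2043 and 2426 in C57BL/6J, high-fat and then low-fat. The median strain log2 ratio of the 6 measured B cell markers was 0.80 on high-fat and 0.37 on low-fat, opposite in direction to Bst1. Blnk, the brightest of them, was lower in A/J, with 778 and 966 there and 1097 and 1261 in C57BL/6J. The 4 Paneth cell markers on the array summed to 12946 and 14588 on the A/J high-fat and low-fat arrays, and 14779 and 16973 on the C57BL/6J high-fat and low-fat arrays, of which Lyz1 made up most. The other Paneth markers were lower in A/J on low-fat: Mmp7 had 1046 and 629 on the A/J high-fat and low-fat arrays, against 1206 and 1147 on the C57BL/6J high-fat and low-fat arrays, and Pla2g2a had 184 and 126 in A/J, against 177 and 280 in C57BL/6J, high-fat and then low-fat. The median strain log2 ratio of the measured Paneth markers was -0.19 on high-fat and -0.87 on low-fat. Defa3 was under the floor on all 4 arrays. The myeloid sums are given with Nos2 above.

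For Rpgrip1, 7 other genes of the ciliary transition zone were measured, and 0 of them were 2-fold apart between strains on either diet. Over all measured genes the share that passed 2-fold was 1.93% upwards and 2.38% downwards on the high-fat arrays, and 3% and 2.64% on the low-fat arrays. Tctn3, a tectonic protein of that zone, had log2 ratios of -0.33 on high-fat and 0.96 on low-fat, and Rab8a, a GTPase of transport to the cilium, 0.13 and 0.68. Photoreceptor markers, the cells in which Rpgrip1 is best known, were near or under the floor. Of 6 on the array, 5 or 6 were under it on each array, the defining genes Pde6b, Gnat1 and Nrl among them, and the sixth, Crx, lay between 99.8 and 135.

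For Abhd1, the 15 other measured entries whose symbols begin with Abhd, 1 of which (Abhd11os) is a transcript named for the strand opposite Abhd11, leaned the same way by less. Of these, 1 passed 2-fold upwards in A/J on both diets and 0 downwards, against 1.12% and 1.21% of all measured genes. At such shares a list of this size shows little. The gene that passed was Abhd14b (2 genes passed with quantile normalization or no scaling), at 2256 and 2378 on the A/J high-fat and low-fat arrays and 802 and 877 on the C57BL/6J high-fat and low-fat arrays. The median log2 ratio was 0.46 on high-fat and 0.29 on low-fat, beside 0.04 and 0.02 over all measured genes. Abhd17a, which removes palmitate from proteins, was higher in A/J by 1.98-fold on high-fat and 1.97-fold on low-fat. By limma 0 of the 15 were called for diet, against 0.61% of all measured genes.

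The 5 genes were also set beside all measured genes by the shape of their profile, as the distance between log2 signals over the 4 arrays, each centred on its own mean. These distances are a description over 4 arrays and say nothing of shared function. They rest on the strain difference that chose the genes and, for Rpgrip1, Trim34a and Nos2, on A/J values set to the floor, so another floor would change them. Bst1 and Rpgrip1 were each other's close companions at a distance of 0.295, and Trim34a lay at 0.334 from Rpgrip1 and 0.409 from Bst1. Beside these members, the nearest genes to Bst1, Rpgrip1 and Trim34a were the ribosomal protein pseudogene Rps4l, at 0.245 from Rpgrip1, the Schlafen gene Slfn2, at 0.283 from Trim34a, the class I histocompatibility gene H2-K1, at 0.330 from Trim34a, and H2-Q2, at 0.304 from Trim34a. Nos2 was nearest to H2-Q2, at 0.359, followed by Pdk1, Hspa1b, Bzw2 and Dap. Abhd1 stood alone on the other side, nearest to Tmem87a at 0.278, then to the clock output gene Dbp, Atp6v0e2, the class Ib gene H2-T18 and the actin regulator Cap1.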

How the data were processed

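Per the labels' protocols, biotinylated cRNA went onto the Affymetrix 430A mouse array, and Microarray Suite 5.0 at default parameters gave 1 intensity per probe set from perfect match and mismatch probes. The deposited values are these linear intensities, with no detection calls; which target they had been scaled to, if any, the sources used here do not give. Of 22690 probe sets, 64 controls were left out, and 20380 of the rest name 1 gene, 691 several and 1555 none. RefSeq (GRCm38.p6) matched the gene numbers of 20351 and changed 0 symbols. Each array was scaled so that its mean, trimmed by 2% at each end, was 500 (factors 2.80 and 2.72 for A/J high-fat and low-fat, 3.41 and 3.08 for C57BL/6J high-fat and low-fat). Signals under 100 were set to 100 and log2 was taken. The probe set with the highest mean stood for a gene, and 8036 genes with a mean of at least 100 are called measured.

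Strain ratios chose the genes and have no test. Diet was tested with limma 3.58.1 (R 4.3.3) on all 4 arrays with strain as an additive term, 1 residual degree of freedom and Benjamini-Hochberg adjustment over 8036 genes. Nothing in the labels gives separate pools of a group, so the spread behind a p-value is the moderated strain-by-diet residual. In 1 simulated data set of 8036 genes, drawn as the fit models noise, this diet term called 96 of 100 genes changed 2-fold, 100 of 100 changed 4-fold and 23 of 7836 unchanged. The simulation had no floor and the same diet change in both strains. Its shares therefore do not carry over to Rpgrip1, Trim34a and Nos2, whose A/J values were at the floor. The rest was done in Python 3.11.15 (pandas 2.3.3, numpy 2.4.6, scipy 1.17.1), with figures from matplotlib 3.10.9.

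The 5 genes, the related-gene lists and the tests were chosen with earlier results of these data known. Genes were named by rule: all 5, the immediate neighbours and those at least 2-fold apart on both diets, the 5 nearest profiles of each, and up to 4 genes of each list with the largest mean strain ratio or with a 2-fold diet ratio in both strains; other names, such as Nampt and the marker genes, were chosen after their values were seen. Alternatives were quantile normalization, no scaling, floors of 50 and 200, a pseudocount of 50, all probe sets of a gene averaged, no shared-transcript probe sets, no filter, an intensity trend, diet as the only factor, and all probe sets fitted.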

Additional observations from a re-analysis of the deposited data

Results flagged for a closer look

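Bst1 drew attention because the diet ratios of the strains ran in opposite directions, and did so the opposite way round in its 2 probe sets. In the brighter probe set, high-fat over low-fat gave a log2 ratio of 0.18 for A/J and -0.13 for C57BL/6J, a difference of 0.31. In the dimmer one it was -0.39 in A/J, taken at the floor on the high-fat array, and 0.30 in C57BL/6J, a difference of -0.69. Neither difference was tested, since there is 1 array per group. The strain difference of Bst1 was many times larger in both probe sets.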

How the results depend on the processing

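Each of the 5 genes kept the direction of its strain difference under every alternative that gave a value, and Trim34a gave none without shared-transcript probe sets, because its remaining probe set was under the filter. The mean log2 strain ratios as reported were 2.95 for Abhd1, -3.26 for Bst1, -3.21 for Rpgrip1, -2.89 for Trim34a and -2.43 for Nos2. Without scaling Abhd1 had 3.18 and Bst1 -3.03. With all probe sets of a gene averaged, Bst1 had -2.92, Rpgrip1 -0.80 and Trim34a -1.45, so Rpgrip1 and Trim34a were then under 4-fold. For these 2 genes the drop is set by the floor. Their other own probe sets were under it on all 4 arrays, so each enters the average with a ratio of 0 by construction. The floor set the bounds: at 50 they were -4.06 for Rpgrip1, -3.56 for Trim34a and -3.43 for Nos2, at 200 they were -2.21, -1.89 and -1.43, and with a pseudocount in place of the floor Rpgrip1 had -3.58 and Nos2 -3.24. High-fat arrays alone, an alternative chosen after seeing the data, gave Rpgrip1 -2.96. The number of genes at least 4-fold apart, 63, stayed within 1.5-fold throughout. Of these, 26 were higher and 37 lower in A/J, against 38 and 30 without scaling, which moved the median strain log2 ratio of all genes from 0.04 to 0.26.

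None of the 5 was called for diet by limma under any alternative, with adjusted p from 0.104 upwards. For Rpgrip1, Trim34a and Nos2 this shows little. As reported, their A/J diet ratio is 0 by construction, which holds the fitted effect nearer to 0. The sign of a diet effect near 0 turned for Bst1 without scaling (-0.0711) and with all probe sets averaged (-0.00981), and for Nos2 with quantile normalization (-0.0125), without scaling (-0.0744) and with the pseudocount (-0.16). The difference of diet ratios moved for Bst1 with all probe sets averaged (-0.19), for Rpgrip1 with a floor of 50 (0.20), the pseudocount (-0.43) and averaging (0.12), for Trim34a with a floor of 50 (-0.34) and the pseudocount (-0.57), and for Nos2 with the pseudocount (-0.33). As reported these were 0.31, 0.50, 0.33 and 0.00. For Rpgrip1, Trim34a and Nos2 the reported value is only the C57BL/6J diet ratio with its sign turned, since both A/J arrays were at the floor. It therefore measures no difference between the strains in the response to diet, and the moved values rest on A/J signals under 100. The limma diet count of 49 genes became 21 with quantile normalization, 20 without scaling, 12 and 0 with floors of 50 and 200, 103 with the pseudocount, 6 with averaging, 6 without shared-transcript probe sets, 0 without the filter, 123 with an intensity trend, 0 with diet as the only factor and 22 over all probe sets. Where limma gave 0, unadjusted p was under 0.05 for 825 genes at a floor of 200, 979 without the filter and 213 with diet alone. The cause of these changes in the count was not tested. Trim30a and Ifit2 are among the 49, and both calls are lost where the count is 0. With averaging, all 6 called genes were higher on high-fat, so both calls are lost there too. Trim30a has only shared-transcript probe sets, so it is absent from the fit without them. No paired analysis was possible because each group has 1 array.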

Other observations

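A second probe set was available for some of the other genes that differed as much between the strains. Of the 63 genes at least 4-fold apart on average, 20 had another measured probe set of their own. In 13 of these it was at least 4-fold apart the same way, Bst1 among them, in 3 it was between 2-fold and 4-fold, in 4 under 2-fold and in 0 at least 2-fold the opposite way. The other 43 genes, Abhd1, Rpgrip1, Trim34a and Nos2 included, had none of their own to compare. For Rpgrip1 the others were too dim, and for Trim34a 1 was too dim and 2 are shared with Trim34b, of which the brighter was 2.11-fold lower in A/J on high-fat and 2.59-fold on low-fat.

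Abhd1 was 1 of 3 genes among the 63 that RefSeq, which annotates the C57BL/6J genome, classes as a transcribed pseudogene, which is 4.76% of them, against 23 of 8032 measured genes with a class (0.286%) as a pseudogene of any kind. The others were H2-Bl, a class I histocompatibility entry, with 2235 and 2953 on the A/J high-fat and low-fat arrays and 550.5 and 533 on the C57BL/6J high-fat and low-fat arrays, and Rps4l, with 131 and 163 on the A/J high-fat and low-fat arrays and 1175 and 1739 on the C57BL/6J high-fat and low-fat arrays. Abhd1 and H2-Bl were higher in A/J and Rps4l was lower.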
